A study of Saccharomyces cerevisiae with 4 samples.

Results

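Nuclear tRNA genes with an annotated span of at most 85 bp were examined for Acs2 peaks in budding yeast. They are 214 of the 275 nuclear tRNA genes and of the 6477 genes in the RefSeq table of the R64 assembly. Spans ran from 71 to 84 bp, and the next nuclear tRNA gene measured 89 bp. The table has no intron features. The span therefore stands in for the lack of an intron, which was not checked directly, and the genes are called short tRNA genes here.

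Acs2 is the nuclear and cytosolic acetyl-CoA synthetase of yeast, which makes acetyl-CoA from acetate. A strain with Acs2-FLAG and an untagged strain were crosslinked with 1% formaldehyde. Both had been cultured at 28 °C in YPD, a rich medium, with 2% glucose, and were taken at an OD600 of 0.7 to 1.0. The Acs2-FLAG immunoprecipitate and input, and the untagged immunoprecipitate and input, formed 4 groups of 1 library each; the M2 antibody against FLAG was used in both immunoprecipitates and no antibody in the inputs. The labels give neither the strain background nor the promoter driving the tagged gene. Because each group had 1 library, no value has an error between cultures and the strains could not be compared by a test.

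Transfer RNAs carry amino acids to the ribosome. Their genes are read by RNA polymerase III from a promoter inside the gene, where the A box and the B box are bound by the factor TFIIIC, which places TFIIIB just upstream of the start. Yeast tRNA genes are short, strongly transcribed and scattered singly over the chromosomes, and most tRNAs are encoded by several near-identical copies. Serine and leucine tRNAs have a long variable arm, so their genes are longer than other intronless tRNA genes.

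The Acs2-FLAG list held 912 peaks and the untagged list 34. Each peak has the authors' fold enrichment at its summit, a ratio to the local background. The lowest local background was 291.1 fragments per base in the Acs2-FLAG library and 198.4 in the untagged library. At those backgrounds the highest p-value kept corresponds to a fold of 1.16 in the Acs2-FLAG list and of 1.26 in the untagged list. The intervals given with folds are 95% Poisson intervals of the summit count and cover counting error only.

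An Acs2-FLAG peak met 210 of the 214 short tRNA genes (98.1%, exact Clopper-Pearson interval 95.3 to 99.5), and an untagged peak met 0 of 214 (upper bound 1.71%). Among all 6431 nuclear genes the percentages were 18.4% in the Acs2-FLAG list and 0.653% in the untagged list. Among the 6217 nuclear genes other than the short tRNA genes, an Acs2-FLAG peak met 15.6%. The exact intervals treat the genes as independent and do not cover a repeat of the library. The nearest untagged peak to any short tRNA gene lay 1003 bp away, at YNCK0006C, and this gene had an Acs2-FLAG fold of 3.20. A fold under 1.26 at a short tRNA gene would not have reached the untagged list at its lowest background, so weak untagged signal is not measured.

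The 210 genes lay under 205 peaks, which are 22.5% of the Acs2-FLAG list. Their fold had a median of 3.12 (exact order-statistic interval over genes 3.05 to 3.17), quartiles of 2.83 and 3.34, and a range of 1.75 to 4.49. The 648 Acs2-FLAG peaks that met no tRNA gene had a median of 1.41. A fold of at least 2.5 was found at 194 of all 214 short tRNA genes (90.7%), against 6.75% of all nuclear genes. Among genes with a peak, the shares were 92.4% of the 210 short tRNA genes and 36.7% of the 1182 nuclear genes. Both percentages of nuclear genes include the short tRNA genes themselves, which raises them. Most of the short tRNA genes fell in a narrow band, with 157 of 210 between 2.5 and 3.5.

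**Figure D1:**
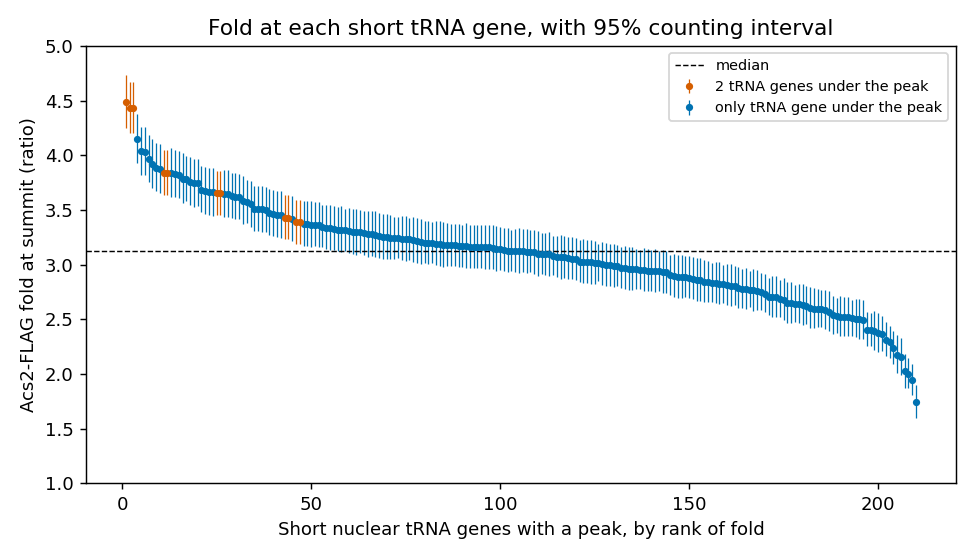
Acs2-FLAG fold (ratio, y axis) of the 210 short tRNA genes with a peak, in order of fold (x axis). Bars are 95% counting intervals and the dashed line is the median of 3.12; the 11 genes that share a peak with another tRNA gene lie at 3.39 or above, and the order falls away below 2.5 over the last 16 genes.

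The spread over genes was set beside the counting error. The interval of a single fold reached a median of 6.31% to each side. It held the median of 3.12 at 87 genes, lay above it at 57 and below it at 66. Neighbours in the order thus did not differ beyond counting error, while the ends of the order did. The interval of the highest gene met those of 6 genes, itself included, and the interval of the lowest met those of 4.

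The highest fold was 4.49 (4.25 to 4.73), at YNCG0028W on chromosome VII (700675 to 700756), whose peak it shares with the longer tRNA gene YNCG0029C. YNCB0004W (chromosome II, 197494 to 197567) and YNCB0005C (197629 to 197699) shared a peak of 4.43 (4.20 to 4.67). Among genes alone under their peak, the highest were YNCE0009C on chromosome V with 4.15 (3.93 to 4.37) and CDC65 on chromosome XIII with 4.04 (3.82 to 4.26). CDC65 encodes a glutamine tRNA. YNCP0009W followed with 4.03, IMT4 with 3.97, YNCP0016W with 3.92, YNCO0029C with 3.88 and SUP16 with 3.87. IMT4 encodes the initiator methionine tRNA and SUP16 a serine tRNA. These 10 genes lay under 9 peaks.

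The lowest fold was 1.75 (1.60 to 1.90), at YNCL0051C on chromosome XII (1052071 to 1052144). YNCP0019W had 1.95 (1.81 to 2.09), YNCE0025C 2.00 (1.87 to 2.14) and YNCL0008W 2.02 (1.87 to 2.19). The next were YNCK0005C with 2.16, YNCL0038W with 2.18, YNCM0021C with 2.23, YNCG0022W with 2.29, YNCB0001W with 2.31 and YNCN0003W with 2.36. Of these 10 genes, 6 span 74 bp, a length that 39 of the 214 short tRNA genes have.

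The fold divides the fragments at the summit by the local background, and both differed along this order. The local background was above 340 fragments per base at 6 of the 10 lowest genes and at 34 of all 210. Its median was 359.4 over the 10 lowest and 318.0 over the 10 highest genes. The fragments at the summit had a median of 779.5 over the 10 lowest and 1325.5 over the 10 highest. As medians, the 10 lowest genes thus had fewer fragments as well as a higher background, but not each of them did. YNCL0051C had 521 fragments at a background of 298.1, YNCK0005C 629 at 291.1 and YNCL0038W 635 at 291.1. YNCE0025C had 840 fragments at a background of 419.2, the highest of all 210 genes. Over the 199 genes alone under their peak, fold and background had a Spearman rho of -0.063, and fragments and background one of 0.42. These are relations across genes of 1 library, and the fold contains the background.

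No Acs2-FLAG peak met 4 short tRNA genes, and no untagged peak met them either. YNCC0008W (149920 to 149991) and YNCC0009C (151284 to 151356) lie 1292 bp apart on chromosome III, and the nearest Acs2-FLAG peak was 1500 bp from the one and 2864 bp from the other, with a fold of 1.33. YNCL0009C (chromosome XII, 448650 to 448721) had its nearest peak 2805 bp away, with a fold of 2.37. YNCN0008C (chromosome XIV, 519099 to 519169) had a peak of 1.69 at 288 bp. Whether fragments could be placed at these 4 loci was not measured, since the lists hold peaks only.

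By span, 22 genes measured 82 to 84 bp and 192 measured 71 to 74 bp. All 22 genes of 82 to 84 bp had a peak, and so did 188 of the 192 others. The median fold was 3.14 (order-statistic interval 2.89 to 3.57) for spans of 80 to 85 bp and 3.12 (3.03 to 3.16) for shorter spans. These medians differed by 0.019, less than the width of either interval. A fold above 3.5 was found at 7 of 22 genes (31.8%) of 80 to 85 bp and at 30 of 188 (16.0%) of the shorter ones. Among the 22, the highest after YNCG0028W were SUP16 with 3.87, SUP17 with 3.83 and SUP51 with 3.66. The serine gene SUP19 had 3.07, and YNCB0001W the lowest value.

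Within both span classes the median was lower at longer spans. The median fold was 3.35 over 16 genes of 71 bp, 3.17 over 80 genes of 72 bp, 3.02 over 53 genes of 73 bp and 2.96 over 39 genes of 74 bp. It was 3.34 over 14 genes of 82 bp and 2.97 over 7 genes of 84 bp, with 3.17 at the single gene of 83 bp, YNCD0028W. The order-statistic intervals of 71 bp (3.09 to 3.78) and 74 bp (2.76 to 3.15) overlapped, as did the ranges of all of these classes. Genes of 1 length are in part copies of the same tRNA, so they are not independent. A fold below 2.5 was found at 16 of the 210 genes. These were 7 of 39 genes of 74 bp, 1 of 16 genes of 71 bp, and others of 72, 73 or 84 bp.

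**Figure D2:**
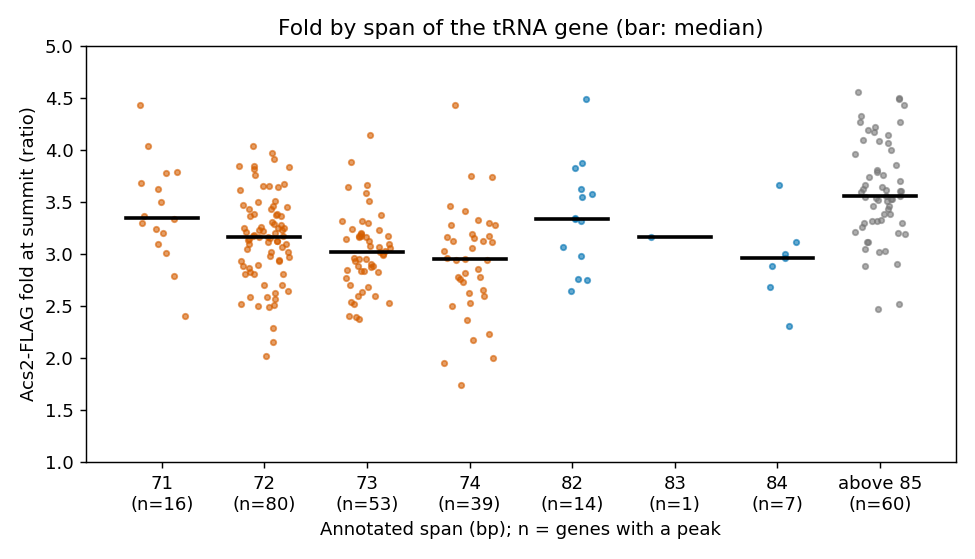
Acs2-FLAG fold (ratio, y axis) of each tRNA gene with a peak by annotated span (x axis, bp), with black bars at the medians. The medians are 3.35, 3.17, 3.02 and 2.96 at 71 to 74 bp, 3.34 at 82 bp, 2.97 at 84 bp and 3.56 above 85 bp, and the points of all classes overlap.

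Beside the longer nuclear tRNA genes the short ones were lower. The median fold was 3.12 (3.05 to 3.17) at the 210 short genes and 3.56 (3.47 to 3.70) at the 60 of 61 longer genes with a peak, a difference of -0.44. The ranges overlapped over most of their length. Of the short genes, 33 reached the median of the longer ones and 14 lay below the lowest longer gene, at 2.47, while 51 of the 60 longer genes reached the median of the short ones. The fragments at the summit had medians of 977.5 at short and 1127 at longer genes. The backgrounds were alike, with medians of 314.1 at short and 313.9 at longer genes. Just outside the limit, the 8 genes of 89 bp had a median of 3.49, from 2.88 at SUP11 to 3.81 at SUP6. Just inside it, the 7 genes of 84 bp ran from 2.31 at YNCB0001W to 3.66 at SUP51. The SUP genes of 89 bp encode tyrosine tRNAs.

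Some genes that have a name of their own form families by symbol. The initiator and the elongator methionine genes are each copies of 1 tRNA, while the SUF genes encode more than 1 tRNA. The 4 initiator methionine genes had 3.97 (3.76 to 4.19) at IMT4, 3.24 at IMT2, 3.19 at IMT1 and 2.50 (2.33 to 2.68) at IMT3. The highest was 1.58 times the lowest, and the counting intervals of these ends lay apart. The 5 elongator methionine genes EMT1 to EMT5 had a median of 3.20, with 3.66 (3.44 to 3.89) at EMT4 and 2.60 (2.43 to 2.78) at EMT3. EMT3 overlaps the annotated coding gene YJL007C. The 11 SUF genes, known from frameshift suppressors in glycine and proline tRNAs, had a median of 3.36. They ran from 2.59 (2.43 to 2.77) at SUF5 to 3.82 (3.61 to 4.04) at SUF1. Both ends are glycine genes of 72 bp, but whether they encode the same tRNA was not checked. The genes with near-identical copies share reads that lie wholly within the gene, and how the authors' alignment placed such reads is not given in the sources used here, and values at individual copies are uncertain for that reason.

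The remaining named genes lay nearer the middle of the order. SOE1, a glutamate tRNA gene, had 3.10 (2.90 to 3.31), HSX1 and TRR4, for arginine tRNAs, 3.31 and 2.99, TRT2, for a threonine tRNA, 3.16, and TGA1, for an alanine tRNA, 3.08. The median over the 30 genes with a name was 3.24 and over the 180 others with a peak 3.09.

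The short tRNA genes had peaks on all 16 nuclear chromosomes. Medians per chromosome ran from 2.89 on chromosome XIV (9 genes with a peak) to 3.42 on chromosome VI (5 genes). Chromosome XII had the lowest single value and 1 gene without a peak. By strand, the median was 3.09 on the + strand and 3.14 on the - strand (105 genes each).

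The summits lay on the genes themselves. A summit fell inside the gene at 198 of all 214 short tRNA genes (92.5%), against 9.23% of the other nuclear genes. Among genes with a peak, the shares were 94.3% of the 210 short tRNA genes and 59.1% of the 972 other nuclear genes, which differ in length. All 210 genes were covered over their whole length. The distance of the summit from the gene's midpoint had a median of 11 bp (9.5 to 14), and it was at most 20 bp at 165 genes (78.6%). Along the direction of transcription, the summit lay on the 5′ side of the midpoint at 159 genes (75.7%), on the 3′ side at 48 and at the midpoint itself at 3. The shift was present on both strands, with 73 of 105 genes on the + strand and 86 of 105 on the - strand. The median offset was -8.5 bp (-10.5 to -6.5), which placed the summit a median of 28 bp into the gene from its 5′ end. At the longer genes the median offset was -10.5 bp (-13 to -6), and 47 of 60 summits lay on the 5′ side.

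Genes of 80 to 85 bp had their summits closer to the midpoint, with a median offset of -4.5 bp (-9.5 to 3.5), against -9.0 bp (-11.5 to -6.5) at shorter genes. Measured from the 5′ end, the median was 36 bp at genes of 80 to 85 bp and 27 bp at shorter ones. The intervals of the offsets overlapped.

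**Figure D3:**
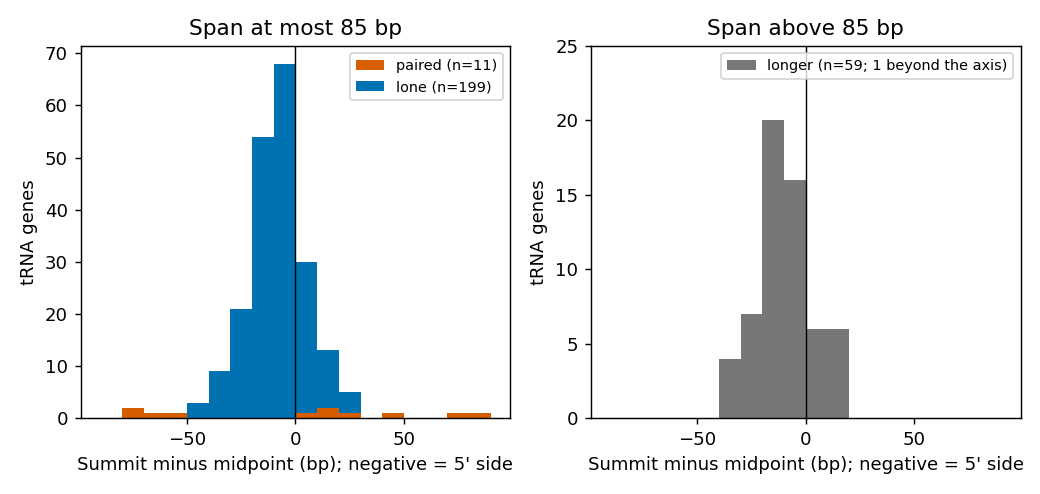
Number of tRNA genes (y axis) by distance of the Acs2-FLAG summit from the gene midpoint in bp (x axis, negative on the 5′ side), for short genes (left) and longer genes (right). Of the short genes, 159 lie left of the midpoint, and the offsets beyond 50 bp belong to paired genes.

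The summit lay outside the gene at 12 genes, 7 of them paired. Of the paired ones, YNCB0004W and YNCB0005C share a summit. At YNCJ0012W, YNCB0016W, YNCJ0013C and YNCD0012W the summit lay in the other gene of the pair. The 5 genes alone under their peak with a summit outside all had it upstream. Among these the farthest was at YNCH0002C, 49.5 bp from the midpoint, with a fold of 3.06. The 5 farthest of all were at paired genes: YNCB0005C at 85 bp, YNCJ0013C at 74.5 bp, YNCG0028W at 72.5 bp, YNCB0016W at 71.5 bp and YNCD0012W at 64.5 bp. Over the 199 genes alone under their peak, fold and summit distance had a Spearman rho of -0.30.

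The peaks were of similar width. The median was 506 bp (493 to 512), and 77.1% of the genes had a peak of 400 to 600 bp. Peaks that met no tRNA gene had a median width of 656.5 bp. The peak reached a median of 216 bp beyond the 5′ end and 202.5 bp beyond the 3′ end. The percentages that follow are of genes with a peak. At 250 bp from the midpoint on the 3′ side, the peak still covered 18.2% of the genes of 80 to 85 bp, 42.0% of the shorter ones and 58.3% of the longer tRNA genes. On the 5′ side at the same distance it covered 59.1%, 55.3% and 78.3% of them.

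**Figure D4:**
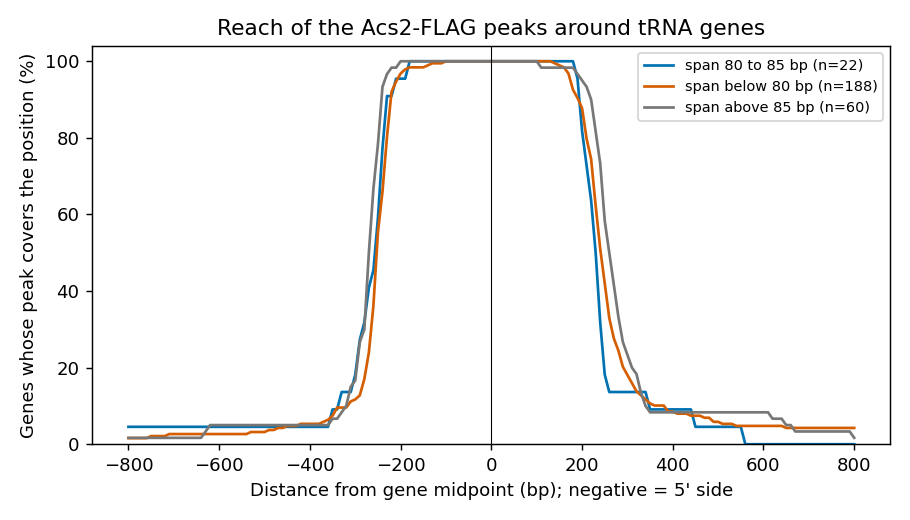
Percentage of the genes with a peak whose Acs2-FLAG peak covers a position (y axis), by distance from the gene midpoint in bp (x axis, negative on the 5′ side). The 3 groups are at 100% at the midpoint because genes without a peak are left out and each peak covered its whole gene. They fall steeply between 200 and 300 bp on either side.

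Width and fold were related. Over the 199 genes alone under their peak, the 50 lowest folds came with a median width of 452.5 bp and the 50 highest with 524 bp, and the Spearman rho was 0.45. The 2 measures come from the same called peak, so they are not independent, and why they were related was not tested. The 3 narrowest peaks were among the 10 weakest, with 338 bp at YNCL0051C, 358 bp at YNCM0021C and 379 bp at YNCE0025C. Other weak peaks were wide, with 2006 bp at YNCK0005C, 645 bp at YNCG0022W and 591 bp at YNCL0038W.

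At 12 genes, under 11 peaks, the width was above 1000 bp. The summit lay in the tRNA gene at 11 of these 12, and 10 of the 12 had a coding gene under the peak too. The widest, of 2387 bp, was at YNCE0010W on chromosome V, with a fold of 3.24, and ran over GCN4, which encodes the transcription activator of amino acid synthesis genes. The next were YNCE0021C with 2331 bp, over the protein phosphatase gene GLC7, and YNCK0005C with 2006 bp, over the cell wall gene PIR1. Folds at these 12 genes ran from 2.16 to 3.82. Among all 210 genes, 71 (33.8%) had a peak that also met a coding gene.

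Some tRNA genes lay in pairs under 1 peak and the others alone under theirs. The paired genes were 11 short genes under 6 peaks. Their median fold was 3.65, from 3.39 to 4.49, and that of the 199 lone genes 3.09 (3.02 to 3.16), from 1.75 to 4.15. Each of the 11 lay above the median of the lone genes, and the ranges overlapped, since 36 lone genes reached the lowest paired value. The 11 genes share 6 values, so they are not independent. The peaks of the paired genes were wider, with a median of 632 bp at paired and 501 bp at lone genes. By definition a paired peak reaches both genes and spans the gap between them. A greater width is thus partly built into the grouping. The local background had a median of 337.5 at paired and 313.0 at lone genes, and its bearing on the fold was not tested.

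In 4 of the 6 pairs, 2 genes of 72 bp follow each other on the same strand with 10 bp between them. These were YNCJ0011W and YNCJ0012W with 3.84 (3.64 to 4.05), YNCB0015W and YNCB0016W with 3.65 (3.45 to 3.86), YNCJ0013C and YNCJ0014C with 3.43 (3.24 to 3.63), and YNCD0011W and YNCD0012W with 3.39 (3.19 to 3.59). In all 4 the summit lay in the gene that comes first in the direction of transcription: YNCJ0011W, YNCB0015W, YNCJ0014C and YNCD0011W. The other 2 pairs lie on opposite strands, pointing at each other, with 61 bp between YNCB0004W and YNCB0005C and 196 bp between YNCG0028W and YNCG0029C. Their summits lay in the gap between the genes, and these were the 2 highest folds. All short tRNA genes with another tRNA gene within 500 bp were in these pairs.

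**Figure D5:**
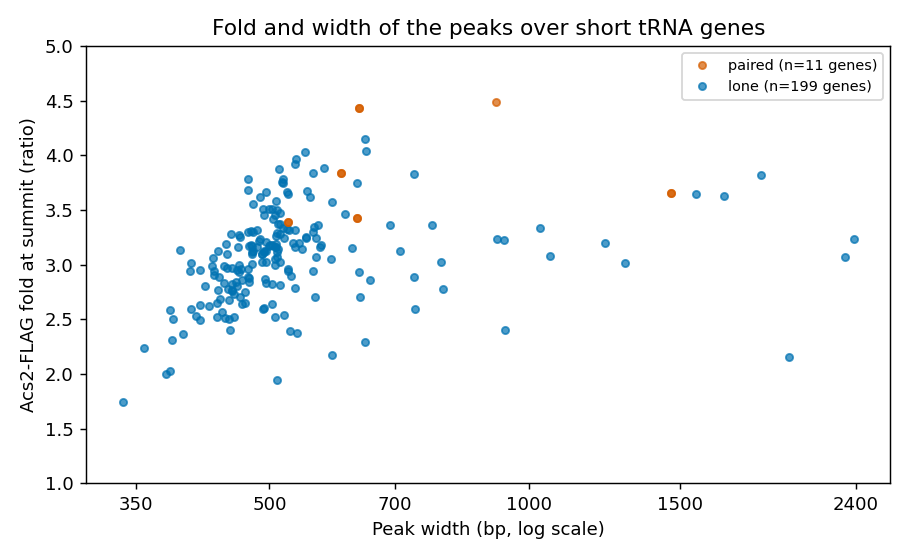
Acs2-FLAG fold (ratio, y axis) against peak width in bp (x axis, log scale) for the 210 short tRNA genes, with paired and lone genes in separate colours. Paired genes that share a peak fall on the same point; the paired genes lie at 3.39 or above, and the lowest fold, 1.75, is at the narrowest peak, of 338 bp.

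Other genes of the same polymerase were set beside them. Of 12 such genes outside the tRNA set, 10 had an Acs2-FLAG peak, with a median fold of 2.36, and 1 had an untagged peak. That gene, the 5S ribosomal RNA gene RDN5-1, had a fold of 2.39 in the Acs2-FLAG list and a higher one of 3.43 in the untagged list. SCR1, the signal recognition particle RNA, had 4.67 (4.46 to 4.89), above every short tRNA gene. SNR52 had 3.89, SNR6, the U6 RNA, 2.93 and RPR1, the RNase P RNA, 2.33, within the range of the short tRNA genes. ZOD1, with 1.59, and the 5S gene RDN5-2, with 1.31, lay below it. The 5S genes RDN5-4, RDN5-5 and RDN5-6 had 2.45, 2.31 and 2.26, inside the range of the short tRNA genes. The median of 2.36 thus mixes copies of the 5S gene with other genes. No Acs2-FLAG peak met the 5S gene RDN5-3 or RNA170. At RPR1, SNR52, RDN5-1, RDN5-2 and ZOD1 the Acs2-FLAG summit lay outside the gene. A summit lay inside SCR1, SNR6, RDN5-4, RDN5-5 and RDN5-6. None of the 22 genes for subunits of RNA polymerase III, its factors and its repressor Maf1 met a peak of either list. The same holds for the 24 mitochondrial tRNA genes, which another polymerase reads. Among all 6431 nuclear genes, 18.4% met an Acs2-FLAG peak and 0.653% an untagged peak. The lack of untagged peaks thus does not set the 22 genes apart. Acs2-FLAG peaks met 0 of the 22, below the 18.4% of nuclear genes, a difference that was not tested. The mitochondrial genes are not part of these percentages.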

How the data were processed

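The authors deposited 1 peak list per immunoprecipitate in narrowPeak format, per the file headers; each header sets the input of a strain before its immunoprecipitate ("Input_vs_IP") without saying which was the background. The lists were read as immunoprecipitate over input, an assumption that the headers leave unsettled. Per the submitters' processing notes, the tools were MACS2, BWA, Trimmomatic and Picard and the build R64. Their settings, the handling of duplicates and the totals of reads are not stated in those notes. The deposited fold is a ratio to the local background at the summit, and the deposited −log10 p and −log10 q belong to the same summit. The deposited score, 10 times the −log10 q, was not used.

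Chromosome accessions of the lists were translated to chromosome numbers. A gene had a peak when they shared at least 1 bp; strand was read from the systematic name. The relations fold = (n + 1)/(background + 1) and the Poisson tail were solved for the summit count n, which came out whole within 0.05 for 907 of 912 Acs2-FLAG and 30 of 34 untagged peaks and for all 210 short tRNA genes. Medians have exact binomial order-statistic intervals. The steps were tested on simulated data. Values compare libraries, not strains, and nothing was tested, so fold values describe and rank peaks within the list. Members and lists were chosen with earlier results of these data known. Named genes are the 10 highest and 10 lowest folds, those without a peak, paired genes, extremes of width and summit distance, genes next to the span limit, and genes with a symbol of their own. The tools were scipy 1.17.1, pandas 2.3.3, matplotlib 3.10.9 and numpy 2.4.6 under Python 3.11.15.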

Additional observations from a re-analysis of the deposited data

How the results depend on the processing

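Over 8 results, 31 alternative settings and 4 more chosen after seeing the data were tried, of which 33 are on the scale of the reported value. Of these, 31 left the value within its 95% interval. For a difference, this interval is that of the first group's median less the other group's median, taken as fixed. It leaves out the spread of the other group and is not an interval of the difference. The 2 settings on the log2 scale kept the sign, with 0.0088 for 80 to 85 bp minus shorter and -0.19 for short minus longer. With the summit required inside the gene, the share of short tRNA genes with an Acs2-FLAG peak was 92.5%. With the summit fragments divided by the lowest background of the library, an alternative added after seeing the data, the median was 3.35; by construction it does not divide by a raised local background. The median for 80 to 85 bp minus that for shorter genes ran from -0.0072 to 0.080 on the fold scale, so it has no direction. Short minus longer ran from -0.51 to -0.44, and paired minus lone from 0.42 to 0.96. Several settings could not move their value, so the count of 31 overstates how far the results were put to trial. The split of spans at 76 bp is the same split, since no span lies between. Every peak over a nuclear tRNA gene had a −log10 q of at least 29.4 and covered the whole gene. The q limit of 5 and the rule of full cover thus dropped none. Stricter rules could not lower the untagged count of 0. The window of 500 bp gave the same 11 paired genes. No paired analysis was possible because each group has 1 library. Leaving out a replicate was not possible for the same reason. Lists of called peaks give no level at genes without a peak.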
